A study of Mus musculus with 2 samples.

Results

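The genes described here are named for the translation initiation factors (eIF) and translation elongation factors (eEF) of the cytosol. They were measured in mouse megakaryocyte-erythroid progenitors (MEP). They were chosen by name: protein-coding genes whose symbol starts with Eif or Eef followed by a digit, leaving out the eIF2 kinase genes (Eif2ak) and the eIF4E-binding protein genes (Eif4ebp). This gave 60 genes of 21461 nuclear protein-coding genes in the tables, 48 Eif and 12 Eef. The names also take in genes of proteins that act on the factors, such as the kinase gene Eef2k and the methyltransferase gene Eef2kmt. The rule uses names and no measured value, but it was set with earlier results of these data known.

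The series holds 1 group, bone marrow MEP of C57BL/6J mice (male, age 5 to 6 weeks), with no treatment or genotype named in the labels. MEP are sorted progenitor cells named for the red cell and platelet lineages. The group has 2 libraries of total RNA, numbered biological replicates 1 and 2, each made with the ScriptSeq kit from 100 ng of input after ribosomal RNA was removed. Since the labels name a single donor for both, whether the cells came from different mice is not stated, and the spread between the libraries may be partly technical. With 1 group and 2 libraries no test between conditions exists, and an exact sign test (two-sided) could not give a p below 0.5, so none was run and all values below are descriptions.

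Protein synthesis starts when eIF2 brings the initiator tRNA to the small ribosomal subunit, eIF3 and the small factors eIF1 and eIF1A prepare that subunit, and the cap-binding complex eIF4F recruits it to the mRNA. After the start codon is chosen, eIF5 and eIF5B promote GTP hydrolysis and joining of the large subunit. During elongation eEF1A delivers aminoacyl-tRNAs, eEF1B recharges eEF1A with GTP, eEF2 moves the ribosome along and eIF5A helps it past difficult peptide bonds. Erythroid cells make very large amounts of globin, and their translation is tuned to haem supply through phosphorylation of eIF2.

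Replicate 1 held 39919858 expected counts (estimated reads or fragments per gene, not normalized) and replicate 2 held 48043009. Levels are given as TPM, a share of transcripts that takes gene length into account and is scaled over all rows of a table. Nuclear protein-coding genes held 25.5% of the TPM in replicate 1 and 20.6% in replicate 2, so an unchanged share of coding RNA has a lower TPM in replicate 2. All 8 MEP and erythroid markers checked had a TPM of 1 or more in each library, with a summed level of 1337 and 1283. Of 10 markers that the MEP gate should lack, Cd3e, Cd4, Cd8a and Ly6a had 0 counts in both libraries, and the 10 summed to 19.4 and 3.88. The others of the 10 had counts in at least 1 library. Of the 10, 1 reached a TPM of 1 in both, and the highest mean TPM was 9.855. The 4 megakaryocyte markers summed to 43.9 and 16.2, the 4 neutrophil markers to 51.0 and 118, the 4 lymphoid and NK markers to 7.01 and 14.1, and both macrophage markers had 0 counts. In bulk samples fewer cells of a type and less RNA per cell cannot be told apart.

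The start sites of 11 members are shown first, 9 of the 12 at a mean TPM of 100 or more beside Eif1 and its paralog Eif1b, because start codon selection, the step served by eIF1, eIF1A and eIF5, depends on these bases. Each line gives the 6 bases before the start codon, the start codon in capitals and the base after it, 5′ to 3′, from the annotated coding transcript with the highest level (GENCODE M21 on mm10). A purine (A or G) at the third base before the start codon and a G just after it mark the context that is read most efficiently.
Eef1a1: gcaaaaATGg
Eef1b2: ttcgccATGg
Eef2: gccaccATGg
Eif5a: cttaaaATGg
Eef1g: atcaccATGg
Eif3e: ggcaagATGg
Eif4a1: aggatcATGt
Eif4a2: cggatcATGt
Eif1: tatcgtATGt
Eif1b: tgtcgcATGt
Eif4g2: gccaaaGTGg
The first 6 have both features. The paralogs Eif4a1 and Eif4a2 share a purine at that place and have no G after the start codon. Eif1 and Eif1b, which encode the factor that makes the scanning ribosome reject poor start sites, have neither feature. Eif4g2, an eIF4G relative without the part that binds the cap-binding factor eIF4E, is annotated to start at GTG instead of ATG. Of the 56 members whose mean TPM was 1 or more, 54 had an ATG start with enough annotated sequence before it. The purine was present in 48 of these 54 (88.9%), against 86.5% of 8591 protein-coding genes at the same level, and the G in 30 (55.6%), against 54.7%. Both were present in 28 (51.9% against 47.7%) and neither in 4 (7.41% against 6.5%), which were Eif1, Eif1b, Eif3b and Eef1akmt1. The members' start contexts were thus close in composition to those of coding genes in general.

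Most members were abundant in MEP. Of the 60 members, 56 had a TPM of 1 or more in each library, where 39.4% of all nuclear protein-coding genes did. Of the 60, 52 had a mean TPM of at least 10 and 12 of at least 100. The members' median TPM was 47.5 in replicate 1 and 35.1 in replicate 2, with a median of the means of 41.6. The same median was 7.39 over the 9033 protein-coding genes whose mean TPM was 1 or more, and 579 over 77 cytosolic ribosomal protein genes. The members held 4.04% of the protein-coding TPM in replicate 1 and 3.66% in replicate 2, and 3.72% and 3.73% of the protein-coding counts. By mean TPM, 3 members were among the 100 highest coding genes and 19 among the 500 highest. The distribution was steep: the 10 highest members carried 80.5% and 76.9% of the members' TPM, and the 12 Eef genes alone 68.8% and 63.4%.

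**Figure D1:**
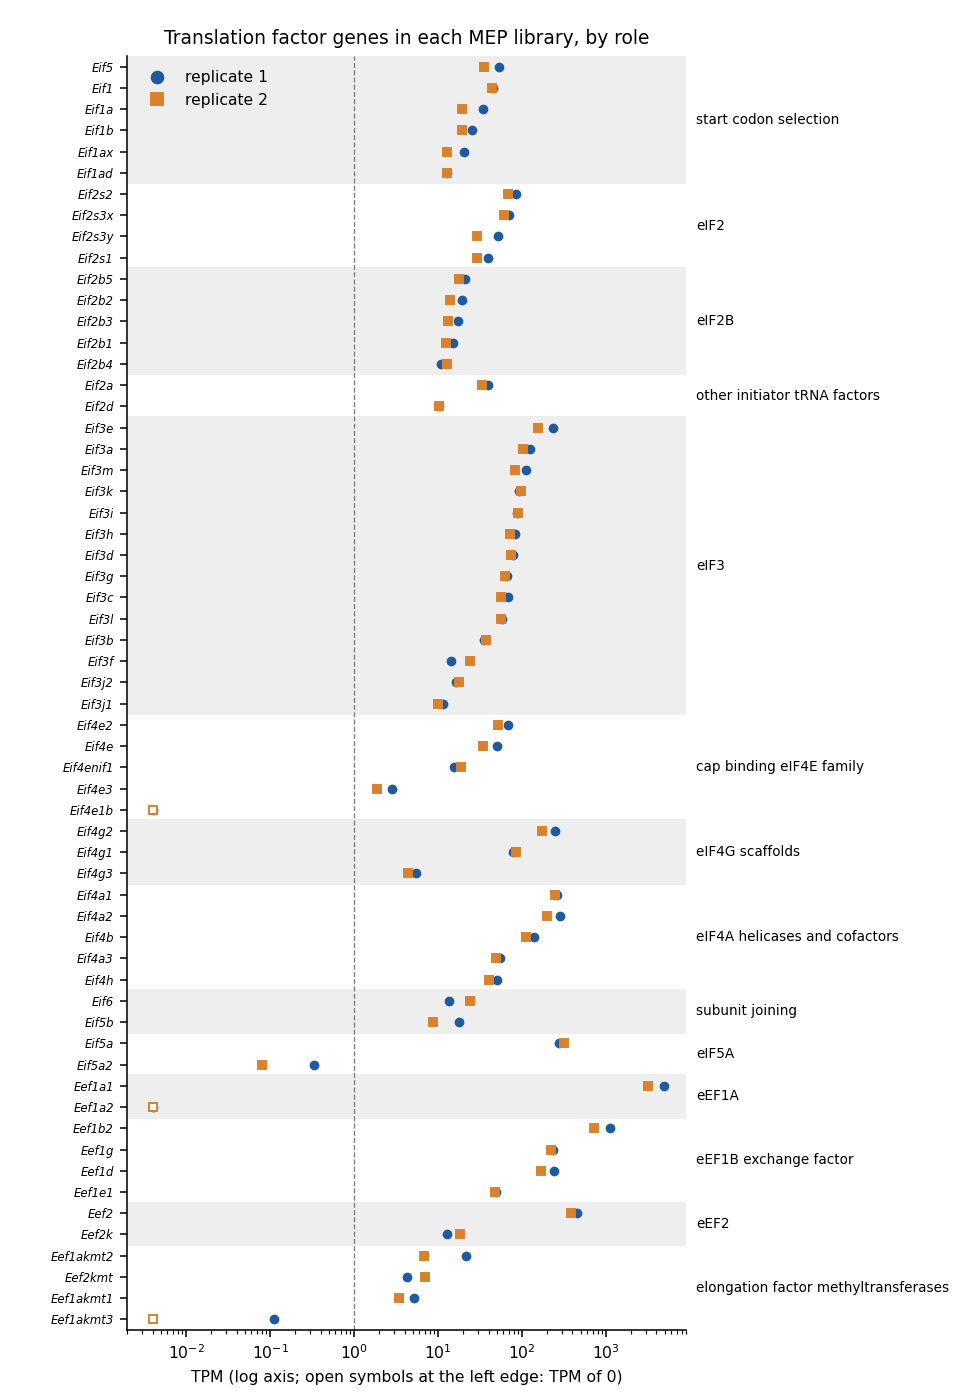
TPM (log axis) of the 60 members in replicate 1 (circles) and replicate 2 (squares), grouped by role and sorted by mean within each role. The dashed line marks a TPM of 1 and open symbols a TPM of 0, which overlap where both libraries are at 0. Eef1a1 stands at the right at 4961 and 3177, most other members lie between 10 and 300, and 4 members fall below 1.

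Elongation factors were led by Eef1a1 (chromosome 9, 78478449 to 78489151, minus strand, mm10), which encodes the GTPase that carries aminoacyl-tRNAs to the ribosome. Its TPM was 4961 in replicate 1 and 3177 in replicate 2, the highest of all nuclear protein-coding genes by mean. It alone made up 48.1% and 42.2% of the members' TPM, and 39.0% and 35.5% of their counts. Its paralog Eef1a2 (chromosome 2, 181147653 to 181157014, minus strand), the form of adult muscle and neurons, had 0 counts in both libraries. Against the floor of 3 counts that a count of 0 allows in a library, a TPM of 0.0177 and 0.0120 for this gene, Eef1a1 was at least 280970-fold higher in replicate 1 and at least 264570-fold higher in replicate 2. The coding sequences of this pair are 80.0% identical over 1392 aligned bases, and 4 processed pseudogenes at least 95% identical to Eef1a1 took 0.887% and 0.534% of the counts of the gene and these copies together. Eef1a1 was the form detected in these libraries, and Eef1a2 was not detectable at this depth.

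The exchange factor eEF1B has 3 subunit genes, and Eef1b2 (chromosome 1, 63176825 to 63180486, plus strand), which encodes a catalytic subunit, was the highest at 1107 and 731 (919 ± 266, SD, n = 2). Eef1g, the structural subunit, had 236 and 225 (231 ± 8.21, n = 2). Eef1d, the other catalytic subunit, had 244 and 169 (206 ± 53.2, n = 2). The order of Eef1g and Eef1d switched between the libraries, while Eef1b2 was 4.68 times the lowest subunit in replicate 1 and 4.33 times in replicate 2. Most of the Eef1b2 level was however assigned to a transcript annotated for decay, as described below. The highest over the lowest subunit was 4.45 by mean TPM over all transcripts and 1.78 on coding transcripts alone. Eef1e1, whose product belongs to the multisynthetase complex and is related to the eEF1B subunits, was at 49.8 and 47.8.

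Eef2, the translocation GTPase, had a TPM of 453 and 382 (417 ± 50.2, n = 2). Eef1a1 exceeded Eef2 by 3.45 and 3.06 on the log2 scale and Eef1b2 by 2.16 and 2.12, or Eef1b2 by 3.52 and 3.20 on coding transcripts alone. Eef2k, the kinase that inactivates eEF2, was at 12.8 and 18.2. The enzymes that methylate elongation factors were low, with a median mean TPM of 4.96 over 4 genes: Eef1akmt2 had 21.5 and 6.85, Eef2kmt 4.32 and 6.93 and Eef1akmt1 5.2 and 3.39. Eef1akmt3 had 24 counts in replicate 1 and 0 in replicate 2, where 3 counts would be a TPM of 0.00895.

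Eif5a, once classed as an initiation factor and now known mainly for elongation and termination, was the highest Eif gene by mean TPM. Its TPM was 276 and 317 (297 ± 29.5, n = 2). By TPM without centring it alone among the 12 members at a mean of 100 or more was higher in replicate 2. On the centred log2 scale described below, Eif4a1 (0.22), Eef1g (0.20), Eef2 (0.03) and Eif3a (0.02) were also above the centre, and the rest below. In replicate 1 Eif4a2, at 288, was above Eif5a, and with near-identical pseudogenes added Eif4a1 was, at a mean of 380 against 297. Its paralog Eif5a2 (chromosome 3, 28781276 to 28798846, plus strand) was at 0.33 and 0.08, from 145 and 53 counts. The log2 ratio of Eif5a over Eif5a2 was 9.71 in replicate 1 and 11.95 in replicate 2. eIF5A is the protein that carries hypusine, a modified lysine. The coding bases around that lysine, codon 50 in capitals within codons 42 to 59, are shown for both genes because they surround the modified residue.
Eif5a: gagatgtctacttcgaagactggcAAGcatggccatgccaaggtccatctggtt
Eif5a2: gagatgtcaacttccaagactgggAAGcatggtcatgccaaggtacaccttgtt
These 54 bases differ at 7 positions and encode the same amino acids, while the whole coding sequences are 72.7% identical. The enzymes that make hypusine were low beside Eif5a: Dohh, the hydroxylase, was at 8.38 and 8.70, and Dhps, the deoxyhypusine synthase, at 4.66 and 3.22. Of 8 genes for the modification of eIF5A and eEF2, all reached a TPM of 1 in both libraries, with a median of 5.37. Dph5 and Dph3, 2 genes of diphthamide synthesis on eEF2, were the highest at 20.3 and 15.0, and 15.5 and 17.2, and Dph2 the lowest at 3.10 and 2.72. Dhps lies outside the rule for named genes and was chosen after its values were seen.

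The 5 genes of the eIF4A helicases and their cofactors had a median mean TPM of 126, against 81.4 for the eIF4G scaffolds and 70.2 for eIF3. On coding transcripts alone, an alternative chosen after seeing the data, this order turned, with medians of 45.6, 74.3 and 70.2. Eif4a1 (chromosome 11, 69666936 to 69672423, minus strand) and Eif4a2 (chromosome 16, 23107444 to 23114136, plus strand) encode paralogous forms of eIF4A, the RNA helicase that unwinds the 5′ end of mRNAs. Eif4a1 had 260 and 250, and Eif4a2 had 288 and 198. Their log2 ratio was -0.15 in replicate 1 and 0.34 in replicate 2, so the order of this pair was not settled by gene-level TPM. The other 11 of 12 paralog pairs kept their sign in both libraries. When only transcripts annotated as protein-coding were counted, Eif4a1 was higher by 1.99 and 3.33 on the log2 scale. Eif4a3, the paralog of the exon junction complex, was at 55.1 and 49.1, with Eif4a1 over it by 2.24 and 2.35.

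Eif4a1 has a processed pseudogene, Eif4a-ps4 on chromosome 1, to which the deposited tables assign 12059.5 and 15557.1 expected counts. The stretch of 90 bases from base 489 of the coding sequence is shown because it holds the only base, in capitals, that differs between them over 1218 aligned coding bases.
Eif4a1: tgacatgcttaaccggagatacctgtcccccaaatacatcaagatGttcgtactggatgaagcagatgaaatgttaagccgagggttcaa
Eif4a-ps4: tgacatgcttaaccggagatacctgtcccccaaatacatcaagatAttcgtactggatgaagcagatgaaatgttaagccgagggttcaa
With 1217 of 1218 bases identical, reads inside the coding part cannot be told apart except at that base. Eif4a-ps4 and a second copy with 3 and 1 counts together took 24.7% and 22.9% of the counts of Eif4a1 and its copies. Adding their TPM to Eif4a1, a further alternative chosen after seeing the data, gave log2 ratios over Eif4a2 of 0.45 and 0.89. Other members had smaller shares at such copies: 5.68% and 3.22% for Eif2s3x, 2.86% and 5.60% for Eif2s2, and at most 1.51% in either library for the 10 other members with counts at a copy.

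Eif4b, a cofactor of eIF4A, had 139 and 113, and Eif4h, a related cofactor, 50.3 and 41.0, a log2 ratio of 1.47 in each library. Eif4g1, the main scaffold, had 78.8 and 84.0, below Eif4g2 at 248 and 174 and far above Eif4g3 at 5.55 and 4.40. Eif4g1 exceeded Eif4g3 by 3.83 and 4.26 on the log2 scale and its log2 ratio over Eif4g2 was -1.66 and -1.05, or -0.85 and -0.17 on coding transcripts alone. eIF4A exceeded its scaffold, with Eif4a1 over Eif4g1 by 1.72 and 1.57, and exceeded the cap-binding subunit, with Eif4a1 over Eif4e by 2.36 and 2.86.

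In the cap-binding family Eif4e2, whose product binds caps in repressive complexes, was higher per length than Eif4e, the subunit of eIF4F. Eif4e2 had 68.3 and 52.0 and Eif4e 50.7 and 34.4. Eif4e3 was at 2.80 and 1.86, and Eif4e1b, an oocyte form, had 0 counts in both libraries. Eif4enif1, the transporter of eIF4E, had 15.5 and 18.6. By counts not divided by length Eif4e was the higher of Eif4e and Eif4e2, with 12309.5 against 5801 in replicate 1 and 12299.9 against 7507 in replicate 2, and the effective length of Eif4e is 2659 against 930 for Eif4e2 in replicate 1. The order by level therefore rests on the per-length scale.

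Initiator tRNA delivery was led by the eIF2 subunits, with a median mean TPM of 52.9 over 4 genes. Eif2s1, the alpha subunit that is phosphorylated under stress, had 39.8 and 29.3, and Eif2s2, the beta subunit, 85.8 and 68.8. The gamma subunit is encoded by an X-linked and a Y-linked gene. Eif2s3x had 69.9 and 60.5, and Eif2s3y 52.3 and 29.0. Together they gave 122 and 89.5, of which Eif2s3y was 42.8% and 32.4%. Their coding sequences are 86.3% identical over 1419 bases. Eif2s3x was higher in both libraries, by 0.42 and 1.06 on the log2 scale, and by 1.14 and 1.39 on coding transcripts alone. With gamma summed, the highest eIF2 subunit was 3.07 times the lowest in replicate 1 and 3.05 times in replicate 2, and alpha was the lowest in each.

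The 5 genes of eIF2B, which recharges eIF2 with GTP and is blocked by phosphorylated eIF2, were below the eIF2 genes and close to each other. Their means ran from 11.7 for Eif2b4 to 19.4 for Eif2b5, which encodes the catalytic subunit. The highest was 1.97 times the lowest in replicate 1 and 1.42 times in replicate 2. By mean TPM it was 1.66 times over all transcripts and 2.20 times on coding transcripts alone. Eif2b5 led in both libraries, but the lowest was Eif2b4 in replicate 1 and Eif2b1 in replicate 2, so the order below Eif2b5 was not stable. The median eIF2B gene at 15.4 was below every eIF2 gene. Eif2a and Eif2d, which encode other proteins able to deliver initiator tRNA, had 39.8 and 33.0, and 10.2 and 10.4.

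**Figure D2:**
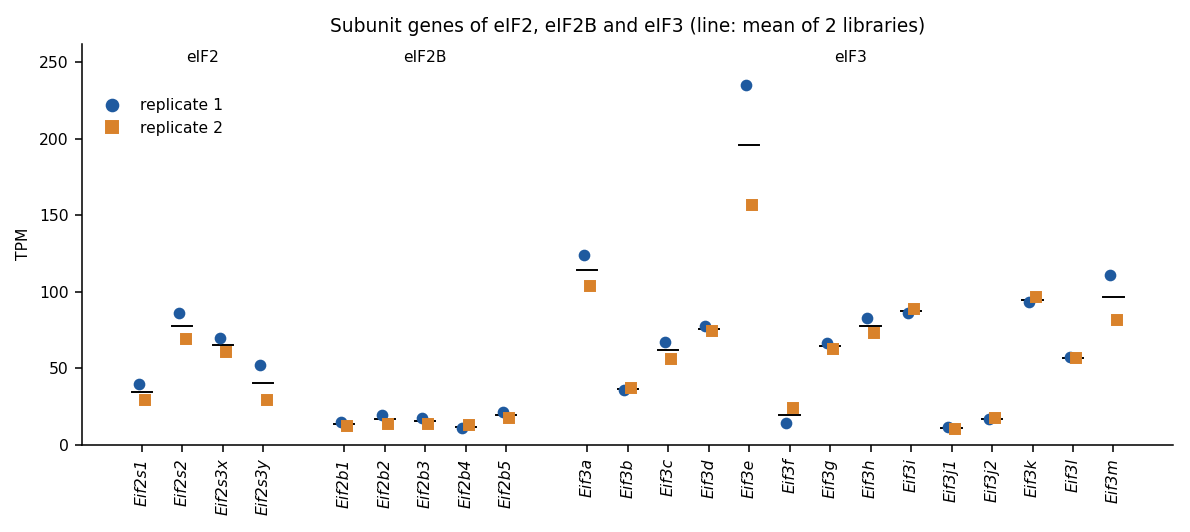
TPM of the subunit genes of eIF2, eIF2B and eIF3 in replicate 1 (circles) and replicate 2 (squares), with the mean of the 2 libraries as a line. The eIF2B genes lie between 10.8 and 21.2, whereas eIF3 runs from Eif3j1 at 11.5 and 10.1 to Eif3e at 235 and 156.

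eIF3, the largest initiation factor, had 14 genes with a median mean TPM of 70.2. Within the 12 core subunits, which assemble in equal number, gene levels spread widely. Eif3e was the highest at 235 and 156 and Eif3f the lowest at 14.3 and 24.0, a ratio of 16.5 in replicate 1 and 6.51 in replicate 2. Eif3a, the large scaffold subunit, had 124 and 104. The coefficient of variation over the 12 subunits was 63.2% and 45.4%, against 24.3% and 15.2% for the 5 eIF2B genes. Eif3m, Eif3k, Eif3i, Eif3h and Eif3d had means from 75.9 to 96.5, and Eif3g, Eif3c and Eif3l from 56.8 to 64.5. Eif3b was at 35.8 and 37.3. Neighbours within these runs differed by little beside their spread, such as Eif3h at 82.8 and 72.8 and Eif3d at 77.3 and 74.6. The loosely attached subunit eIF3j has 2 genes, Eif3j1 at 11.5 and 10.1 and Eif3j2 at 16.5 and 17.6. Their coding sequences are 99.2% identical, so the division of reads between them, and with it their ratio, is uncertain.

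The start codon selection group had a median mean TPM of 24.6. Eif5, which triggers GTP hydrolysis by eIF2, had 53.9 and 35.8. Eif1 had 45.2 and 43.6 and its paralog Eif1b 25.7 and 19.2, so Eif1 was higher by 0.81 and 1.19 on the log2 scale. Eif1a had 34.4 and 19.2 and the X-linked paralog Eif1ax 20.7 and 12.8, a log2 ratio of Eif1ax over Eif1a of -0.74 and -0.59. By counts not divided by length Eif1ax was the higher, with 9337 and 8489 against 8346 and 6828. Eif1ad had 12.7 in each library. For subunit joining, Eif5b, the GTPase that joins the subunits, had 17.8 and 8.66, and Eif6, which keeps free large subunits from joining early, 13.5 and 23.8. Among all 19 pairs of paralogs or partners examined, 12 had the first gene higher in both libraries, 6 the second and 1 neither. The deposited TPM intervals of the pair were apart in both libraries in all 19. Each interval belongs to 1 library and does not measure the spread between libraries. Eif4a1 and Eif4a2, whose order turned between the libraries, are among the 19.

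**Figure D3:**
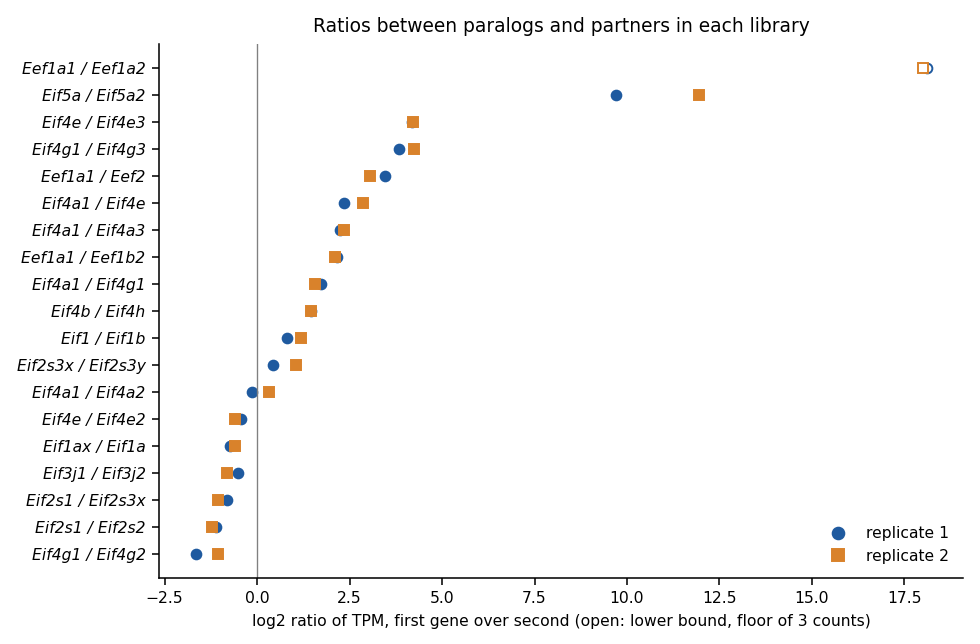
Log2 ratio of TPM, first gene over second, for 19 pairs of paralogs or partners in replicate 1 (circles) and replicate 2 (squares). Open symbols are lower bounds against the floor of 3 counts. Only Eif4a1 over Eif4a2 lies on both sides of 0, at -0.15 and 0.34, and Eif5a over Eif5a2 has the widest gap between libraries, 9.71 against 11.95.

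Transcript-level tables divided each gene among its annotated transcripts, 317 for the members in all, of which 6 had no match in the annotation. These are estimates from short reads. Of the 56 members at a mean TPM of 1 or more, 20 had a single transcript, and 32 of the other 36 were led by the same transcript in each library. In 27 of the 56 every unit of TPM fell on transcripts annotated as protein-coding in both libraries, and the median share was 99.8% and 98.2%. Counts of this kind were not made over all coding genes, so the members cannot be set against them here. Coding transcripts held under 50% of the TPM in both libraries in 4 members.

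Eef1b2 is the most abundant of these 4. Its coding share was 36.8% and 43.5%, and its leading transcript, Eef1b2-205, annotated for nonsense-mediated decay (the destruction of mRNAs with an early stop), held 59.5% and 52.4%. That transcript shares 540 of its 691 bases, in exact stretches of at least 50, with the leading coding transcript Eef1b2-209 of 681 bases. Eif4a2 had coding shares of 17.1% and 10.6%, with 28.8% and 29.4% on decay transcripts and 54.1% and 59.9% on retained introns. Its leading decay transcript, Eif4a2-204, is contained wholly in such stretches in the coding transcript Eif4a2-202. In Eif2a the coding share was 41.5% and 22.1%, and the decay transcript Eif2a-207, again wholly contained in the coding Eif2a-201, led with 56.5% and 58.5%. Eif6 had coding shares of 44.5% and 45.4%, led by Eif6-205, a non-coding transcript of 402 bases with 39.0% and 49.3%.

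TPM divides by length, so short transcripts weigh more in it than in counts. By share of expected counts only 3 members had under 50% on coding transcripts in both libraries: Eef1b2 at 41.4% and 48.9%, Eif2a at 45.4% and 26.3% and Eif4a2 at 32.3% and 21.2%. Eif6 then had 81.5% and 84.5%. Eif4g2 shows the same gap, since Eif4g2-204, a retained intron of 418 bases, held 30.0% and 37.1% of its TPM but 3.16% and 3.17% of its counts. In Eef1a1 the full transcript Eef1a1-201 of 1794 bases held 51.3% and 67.6% of the TPM, and the coding transcript Eef1a1-207 of 859 bases 40.3% and 22.4%. In Eef1d the longer coding transcript Eef1d-218 of 1721 bases held 7.10% and 23.4% of the TPM and 16.9% and 42.3% of the counts, higher in replicate 2 on both scales.

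**Figure D4:**
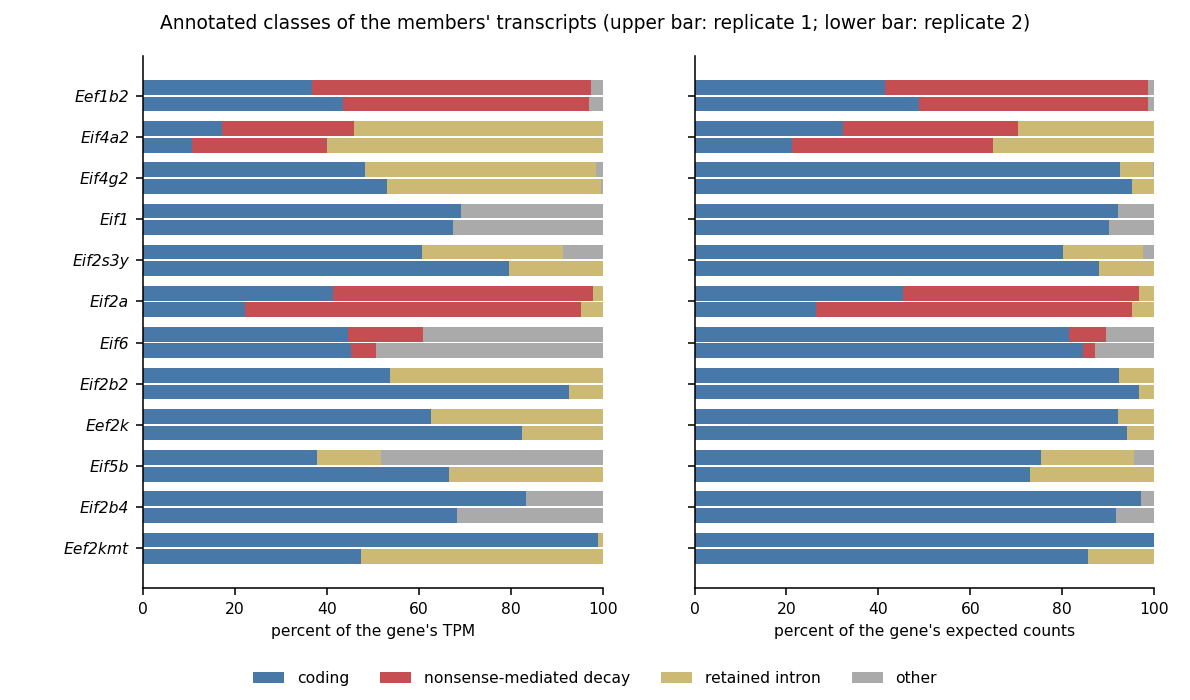
Percent of each gene's TPM (left) and expected counts (right) by annotated transcript class, for the 12 members with under 70% of their TPM on coding transcripts in at least 1 library. The upper bar of each gene is replicate 1 and the lower bar replicate 2. Eef1b2, Eif4a2 and Eif2a keep under 50% coding on both scales, while Eif4g2 and Eif6 exceed 80% coding by counts.

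The leading transcript differed between libraries in 4 members. Eif5b was led by the short non-coding Eif5b-203 at 48.1% in replicate 1, which had 0 in replicate 2, where the coding Eif5b-201 led at 66.5%. Eef2kmt was led by the coding Eef2kmt-201 at 99% and then by the retained intron Eef2kmt-202 at 52.5%, although the latter had 14.3% of the counts. Eef2k was led by Eef2k-206, a retained intron, at 37.4% and then by Eef2k-209 at 42.9%, a coding transcript of 203 bases with 25 counts. Eif4g3 was led by Eif4g3-212 at 34.9% and then by Eif4g3-203 at 26.5%. By share of counts the leader differed only in Eif4g3 among these 4: Eif5b-201 led with 75.3% and 73.0%, Eef2k-201 with 56.3% and 59.3% and Eef2kmt-201 with 99.8% and 85.7%. Eif5b-203 held 4.47% of the counts in replicate 1. Outside these 4 the leader by counts also differed in Eif4a2 and Eef1d. In Eif4a2 the coding Eif4a2-202 led replicate 1 with 30.5% and the decay transcript Eif4a2-204 replicate 2 with 35.7%. In Eef1d the coding Eef1d-217 led replicate 1 with 34.0% and the coding Eef1d-218 replicate 2 with 42.3%. The effective length of the gene Eif5b, an average over its transcripts, was 3822 in replicate 1 and 6898 in replicate 2, and its TPM was lower in replicate 2 although its counts were 6195 and 8034.

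The libraries were compared as log2((TPM of replicate 2 + 1)/(TPM of replicate 1 + 1)), minus its median of -0.27 over protein-coding genes at a mean TPM of 1 or more. Before this centring 42 of the 56 members were lower in replicate 2 and 14 higher, and the median coding gene was lower too. After it 31 were above and 25 below the centre, with a median of 0.02, and 47 (83.9%) lay within 0.5 of it, against 72.7% of those coding genes. The deposited intervals, whose level is not stated, lay apart between the libraries in 45 of the 56 members, where 76.9% of 9033 coding genes did. A single member was past 2-fold higher in replicate 2, where 3.41% of coding genes were, and a single member past 2-fold lower, where 2.90% were.

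The member past 2-fold higher was Eif6 (chromosome 2, 155819832 to 155826925, minus strand), at 13.5 and 23.8 from 838 and 2184 counts, a centred difference of 1.05, or 1.13 on counts scaled by TMM. The member past 2-fold lower was Eef1akmt2 (chromosome 7, 132827457 to 132852673, minus strand), which encodes a lysine methyltransferase of eEF1A, at 21.5 and 6.85 from 1423 and 726 counts, a difference of -1.25, or -1.14 on scaled counts. Short of 2-fold, which is 1 on this scale, the largest differences were Eif3f at 0.98, Eef2kmt at 0.85, Eef2k at 0.75 and Eif5b at -0.68. On scaled counts Eif3f stayed near at 0.87, while Eef2kmt, Eef2k and Eif5b were at 0.17, 0.14 and 0.15, so Eif5b changed sign. Eif2b2, at -0.18 on centred TPM and 0.55 on scaled counts, and Eef1d, at -0.26 and 0.20, also changed sign between these scales. Of the 12 most abundant members Eif5a had the highest centred difference at 0.48 and Eef1a1 the lowest at -0.37. On scaled counts Eif5a was again the highest of the 12 at 0.53, but the lowest was Eif4a2 at -0.34, with Eef1a1 at -0.12. Between the same libraries the neutrophil marker sum was higher and the megakaryocyte marker sum lower in replicate 2, and their part in these differences was not tested.

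**Figure D5:**
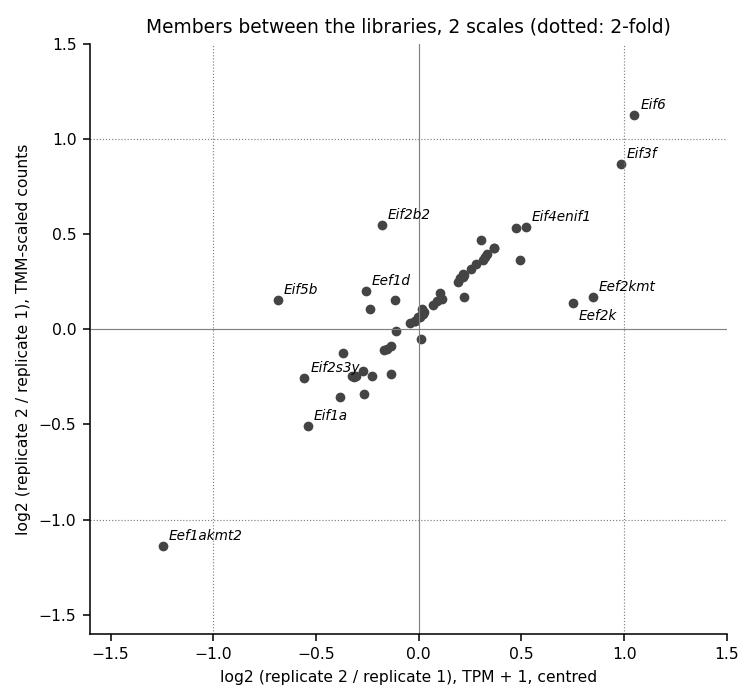
Log2 difference of replicate 2 from replicate 1 for the 56 members at a mean TPM of 1 or more, from centred TPM + 1 (horizontal) and from TMM-scaled expected counts (vertical), with 2-fold as dotted lines. Eif6 and Eef1akmt2 are past 2-fold on both scales, and Eif5b, Eif2b2, Eef2kmt, Eef2k and Eef1d lie farthest off the diagonal.

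Other genes of the pathway were taken from 9 lists of 44 genes that are not members. Of these, 42 reached a TPM of 1 in both libraries, where 39.4% of all nuclear protein-coding genes did. On centred TPM 0 of those at a mean TPM of 1 or more were past 2-fold between the libraries. Of coding genes at that level 3.41% were past it higher in replicate 2 and 2.90% lower. Paip2 came closest to the limit, at -0.97. The median mean TPM of the 44 genes was 12.03, below the members' 41.6. Among the eIF2 kinases and phosphatase subunits, Ppp1r15a and Ppp1r15b, which direct the phosphatase to eIF2 alpha, were the highest at 42.7 and 40.0, and 30.9 and 25.0. The double-stranded RNA-activated kinase Eif2ak2 had 17.7 and 11.8, and the endoplasmic reticulum kinase Eif2ak3 was the lowest at 3.0 and 2.13. The haem-regulated kinase Eif2ak1, named after its values were seen, had 10.9 and 13.9. Of the regulators of eIF4E and eIF4A, Pdcd4, an inhibitor of eIF4A, led at 73.9 and 58.1, Eif4ebp1 had 14.7 and 22.3, the eIF4E kinase gene Mknk1 15.6 and 12.4, and Eif4ebp3 had a TPM of 0 in both. The poly(A) binding genes Pabpc1, Paip2 and Pabpc4 had 145 and 101, 101 and 42.0, and 53.1 and 54.0, and Paip1 was the lowest at 14.7 and 9.98.

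The genes of termination and recycling were near the level of eIF3. Abce1, the recycling ATPase, had 81.1 and 69.7, Gspt1, the release factor GTPase, 49.1 and 70.5, and Etf1, the release factor that reads stop codons, 66.2 and 46.1, whereas the Gspt1 paralog Gspt2 was at 0.38 and 0.24. In the mitochondrial list Gfm1, Mtif2 and Tufm had 25.1 and 37.5, 31.3 and 28.1, and 24.6 and 27.5, and Gfm2 was the lowest at 10.5 and 8.61. Tufm, the mitochondrial counterpart of eEF1A, was thus far below Eef1a1. Denr, of a reinitiation complex, had 27.1 and 20.9, its partner Mcts1 12 and 7.09 and Mcts2 1.66 and 1.25. In the mTOR list Larp1, which binds mRNAs of translation factors, had 13.5 and 14.5, the kinases Rps6kb1 and Rps6kb2 had 12.1 and 11.3, and 2.66 and 4.75, and Mtor was the lowest at 2.44 and 2.64. Secisbp2 and Eefsec, which serve selenocysteine insertion, had 8.51 and 6.37, and 2.45 and 2.34.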

How the data were processed

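Total RNA was measured in 2 MEP libraries of 1 group. The deposited gene and transcript tables hold expected counts (estimated, not normalized), TPM, a posterior mean TPM, interval bounds of the TPM (used as a signal), effective lengths and, per transcript, the percent of the gene's TPM, per the file headers. The authors used build mm10 and GENCODE M4, per the text files deposited with the tables. The quantifying program and its use of strand are not given in the sources used here, so reads of overlapping or antisense genes may be shared. No replicates were pooled. The size range was 200 to 1000 for replicate 1 and 215 to 1000 for replicate 2, per the labels (unit not stated).

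Symbols, gene classes, coordinates and sequences came from GENCODE M21 on the same assembly, after IDs were matched without version (42462 of 43346 Ensembl rows). The members, lists, pairs and rules were chosen with earlier results of these data known. The share of coding genes stands beside the main counts of members detected, past 2-fold, with intervals apart or with a start context. Other counts of members, such as those by transcript class, have no such share beside them. Differences between libraries used a pseudocount of 1, centring on the median of coding genes and a 2-fold limit, and the scripts were tested on simulated data. Ratios to a gene at 0 counts used a floor of 3 counts, which covers counting error only. As alternatives, expected counts rounded to whole numbers were scaled with edgeR 4.0.16 (TMM) or DESeq2 1.42.0 size factors in R 4.3.3. Near-identical pseudogenes were found with BLAST 2.17.0 (at least 95% identity over at least 300 bases). Other steps used Python 3.11.15, numpy 2.4.6, pandas 2.3.3, Biopython 1.88 and matplotlib 3.10.9.

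With values in each library the text names members whose mean TPM was 100 or more, members of pairs, members under a TPM of 1, members past 2-fold and members whose leading transcript differs, and of each further list the 3 highest genes and the lowest. Any member may be named. No protein sequences were used here.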

Additional observations from a re-analysis of the deposited data

Results flagged for a closer look

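Expected counts appeared at pseudogenes of the members, which are outside the gene rows used for the members' levels and enter only the alternative that adds them. Eif4a-ps4, a copy of Eif4a1, had 12059.5 in replicate 1 and 15557.1 in replicate 2. Eif3s6-ps1, a copy of Eif3e, had 23.04 and 7.01. All 4 values are above the limit of 3 counts used for genes at 0. Whether these reads come from the copies or from the parent genes was not tested.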

How the results depend on the processing

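Rescaling TPM to nuclear protein-coding genes moved the members' median from 41.6 to 178. Without centring, members past 2-fold between the libraries fell from 2 to 1 (Eef1akmt2) and the members' median difference went from 0.02 to -0.26, which the construction of that alternative gives. With counts not divided by length 3 log2 ratios turned: 0.90 for Eif4e over Eif4e2, 0.24 for Eif1ax over Eif1a and 0.53 for Eif3j1 over Eif3j2. Leaving out a library gave medians from 35.1 to 47.5, and 56 members detected each time. The eIF3 ratio of highest to lowest subunit lay between 6.51 and 16.5. A pseudocount of 0.1 gave 3 members past 2-fold, with Eif3f at 1.06 as the third. TMM or DESeq2 scaling gave 2, where 6.41% and 8.31% of coding genes were past 2-fold. The share of coding genes past 2-fold without centring or at a pseudocount of 0.1 is not given here. Those changes in count are therefore not read as results about the members. Intervals divided by the libraries' median ratio lay apart in 45 members and 70.9% of coding genes. No paired analysis was possible because there is 1 group. Depth limits the members at 0 counts, whose level can be under the floor of 3 counts but was not shown to be 0.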
